A study of Mus musculus with 6 samples.

Results

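Serum amyloid A genes were examined in liver RNA of mice given a lentiviral vector and of untreated mice. The members were taken by name, as the rows Saa1, Saa2, Saa3 and Saa4, and all 4 were found among the 8390 genes listed. Liver RNA from mice of the inbred strain C57BL/6 was sequenced in 6 samples. The LV group has 3 samples, from mice that received 3e8 transducing units of the vector into a vein and were killed after 4 h. The untreated group has 3 samples from mice without vector. Samples of a group are numbered replicates, and whether each came from its own mouse is not stated in the labels. As neither group was mock-injected, effects of the vector, of the injection and of the handling cannot be told apart. The labels used here name neither age nor sex of the mice nor the vector's cargo. Values are whole numbers in the deposited unit, which behaved as scaled for library size and transcript length. Fold changes are given on the log2(value + 1) scale, as the LV mean less the untreated mean, each with ± its standard error from limma. A call means a Benjamini-Hochberg adjusted p under 0.05 over all 8386 tested genes.

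Serum amyloid A proteins are small apolipoproteins that ride on high-density lipoprotein. In an acute-phase response hepatocytes receive interleukin-6, interleukin-1 and tumour necrosis factor, and STAT3, NF-kB and C/EBP factors then switch the genes on. Mouse Saa1 and Saa2 are the main inducible plasma forms. Saa3 is inducible too and is also made outside the liver, by macrophages and adipocytes, and Saa4 is known as the constitutive member. Deposits derived from serum amyloid A are the hallmark of AA amyloidosis, a systemic disease that can follow long-lasting inflammation.

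The 4 genes lie in a cluster on chromosome 7, and the promoter windows are shown because Saa1 and Saa2 differ so little there. Sequences are RefSeq windows of build GRCm38.p6, from 250 bases before to 50 after the start of transcription, 5′ to 3′ along the gene's own strand. All 4 symbols matched, with 1 window each. Capitals mark matches to C/EBP and NF-kB motifs on either strand. The Saa1 window is at chr7:46742931-46743230 (minus strand), that of Saa2 at chr7:46751583-46751882 (plus strand), that of Saa3 at chr7:46715627-46715926 (minus strand) and that of Saa4 at chr7:46732554-46732853 (minus strand).
Saa1: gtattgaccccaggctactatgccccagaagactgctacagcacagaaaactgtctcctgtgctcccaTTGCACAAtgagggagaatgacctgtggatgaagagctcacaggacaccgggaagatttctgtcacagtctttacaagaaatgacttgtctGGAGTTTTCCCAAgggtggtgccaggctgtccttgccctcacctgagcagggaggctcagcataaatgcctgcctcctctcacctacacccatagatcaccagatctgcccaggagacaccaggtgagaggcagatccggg
Saa2: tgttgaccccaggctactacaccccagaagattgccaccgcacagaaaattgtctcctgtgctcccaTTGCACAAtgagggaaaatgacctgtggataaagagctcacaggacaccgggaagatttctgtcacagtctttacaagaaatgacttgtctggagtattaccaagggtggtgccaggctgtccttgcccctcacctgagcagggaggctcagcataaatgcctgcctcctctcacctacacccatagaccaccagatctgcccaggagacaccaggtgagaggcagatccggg
Saa3: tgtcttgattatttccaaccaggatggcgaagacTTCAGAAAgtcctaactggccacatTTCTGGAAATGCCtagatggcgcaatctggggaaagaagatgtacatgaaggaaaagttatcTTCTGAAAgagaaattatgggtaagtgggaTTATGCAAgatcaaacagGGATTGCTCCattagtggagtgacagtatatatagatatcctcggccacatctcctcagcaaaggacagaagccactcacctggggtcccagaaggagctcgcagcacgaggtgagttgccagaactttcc
Saa4: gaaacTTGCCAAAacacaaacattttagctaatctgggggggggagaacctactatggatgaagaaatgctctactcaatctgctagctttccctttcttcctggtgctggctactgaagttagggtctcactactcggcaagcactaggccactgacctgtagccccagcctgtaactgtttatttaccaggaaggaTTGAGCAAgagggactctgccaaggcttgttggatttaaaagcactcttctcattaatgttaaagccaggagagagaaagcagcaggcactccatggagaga

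The Saa1 and Saa2 windows were identical at 287 of 301 aligned columns (95.3%). No other pair exceeded 54.2%. The windows of Saa1 and Saa2 differed by 12 substitutions, and 2 of these fell inside a match to the 10-base NF-kB consensus in Saa1, GGAGTTTTCC, at bases -91 to -82. Counted from 1 at the 5′ end of the Saa1 window, with the Saa1 base first, they were T165A and C168A, and the Saa2 window held no match there. That consensus was added after the sequences had been seen, and 26.9% of 32544 RefSeq promoter windows hold it. The C/EBP motif, searched as TTNNGNAA, occurred in all 4 windows and in 40.7% of all windows. Saa1 and Saa2 shared the match TTGCACAA, at bases -182 to -175 and -183 to -176, and the second C/EBP match of Saa1 overlapped its NF-kB match. Saa3 held 4 C/EBP matches, the only match in these windows to NF-kB searched as GGNNTTTCC (5.83% of all windows), and a further match to the 10-base consensus. An interferon response element searched as GAAANNGAA (8.53% of all windows) was matched in Saa3 and in Saa4. No window held the STAT motif TTCNNNGAA (8.33% of all windows) or the letters TATAAA (13.6%). A match describes letters only, and its absence says that these letters are not in this window.

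**Figure D1:**
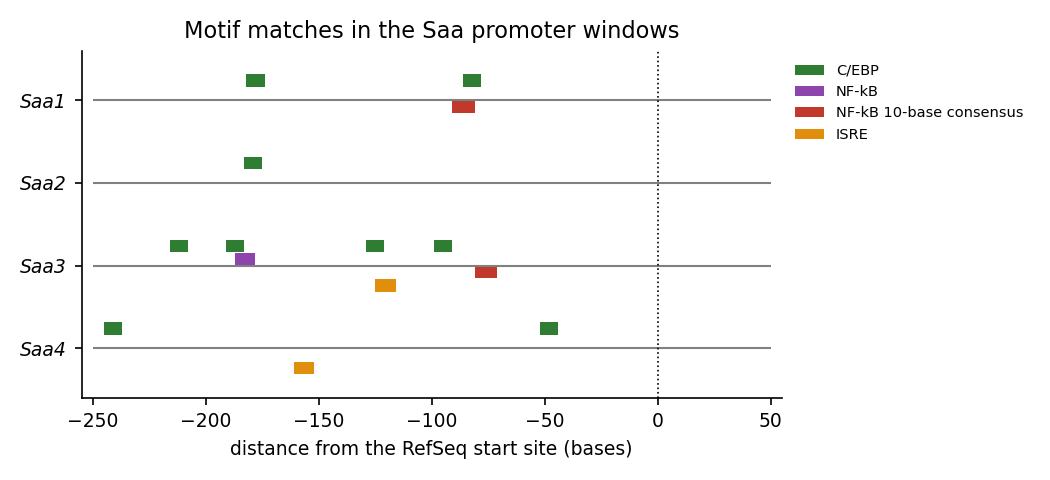
Position of motif matches in the promoter windows of the 4 Saa genes; the horizontal axis is the distance in bases from the RefSeq start site and each coloured block is a match on either strand. Saa1 and Saa2 share a C/EBP match upstream of base -175, and only Saa1 and Saa3 hold a match to the 10-base NF-kB consensus.

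Close paralogs can exchange reads, so the similarity of the transcripts was measured. In the GENCODE M21 annotation the coding sequences of Saa1 and Saa2 were both 369 bases long and identical at 351 positions (95.1%). Saa3 matched Saa1 at 77.1% of aligned columns, and Saa4, with 393 coding bases, at 67.3%. Of 560 windows of 50 bases in the Saa1 transcript, 74 (13.2%) occurred unchanged in the Saa2 transcript, 9 (1.61%) in that of Saa3 and 0 in that of Saa4. The longest run shared by the Saa1 and Saa2 transcripts was 99 bases. RefSeq also lists Saa2 as an older name of Saa1 and Saa1 as an older name of Saa2. Which of the pair a row of the deposited table holds is therefore uncertain, as is the split of reads between them, and their sum is given beside the single rows.

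Some facts of the libraries touch the results. LV replicate 3 and untreated replicate 2 stood apart from the others in genes with a male bias in mouse liver. Elovl3, which lengthens fatty acids, reached 169 and 159 in this pair against 0 to 4 in the other 4 libraries. Cyp2b9, a P450 with a female bias, had 8 and 5 there and 121 to 157 elsewhere. Column sums ran from 497295 to 526009 and are not read totals, so the depth is unknown. As the source of the replicates is not stated, a p-value here covers only the scatter among these 6 samples, which may be technical. All 8 hepatocyte markers searched were in the table and 0 were called in limma. At an unadjusted p under 0.05, 1 (Hnf4a) was higher and 1 (Tat) lower. Their summed value was 65209 to 76579 in LV and 70442 to 95629 in untreated samples. Most of it was Alb, at 41700 to 54529 in LV and 49014 to 69728 in untreated samples. The 8 sinusoidal endothelial markers searched were also all measured and 0 were called in limma, with 1 (Lyve1) higher and 0 lower at an unadjusted p under 0.05. Their summed value was 81, 133 and 118 in LV replicates 1, 2 and 3 and 156, 144 and 137 in untreated replicates 1, 2 and 3, lower in every LV sample and lowest in LV replicate 1. The markers did not move as a set, as 3 had a positive and 5 a negative fold change. Clec4g had the largest negative one, with 11, 43 and 33 in LV and 55, 54 and 58 in untreated replicates 1, 2 and 3 (limma adjusted p = 0.290). The part of these cells in the Saa values was not tested.

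All 4 Saa genes rose in liver samples taken after the vector, and they did so to very different degrees. On the log2 scale the fold change was 6.57 for Saa2, 5.94 for Saa1, 4.70 for Saa3 and 1.69 for Saa4. Each of the 4 was called higher, against 3.76% of all tested genes called higher, 0.87% called lower and 4.63% called in either direction. In each of them every LV value lay above every untreated value, as was so for 8.65% of all tested genes, while 11% had every LV value below. The median fold change of all tested genes was -0.07.

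**Figure D2:**
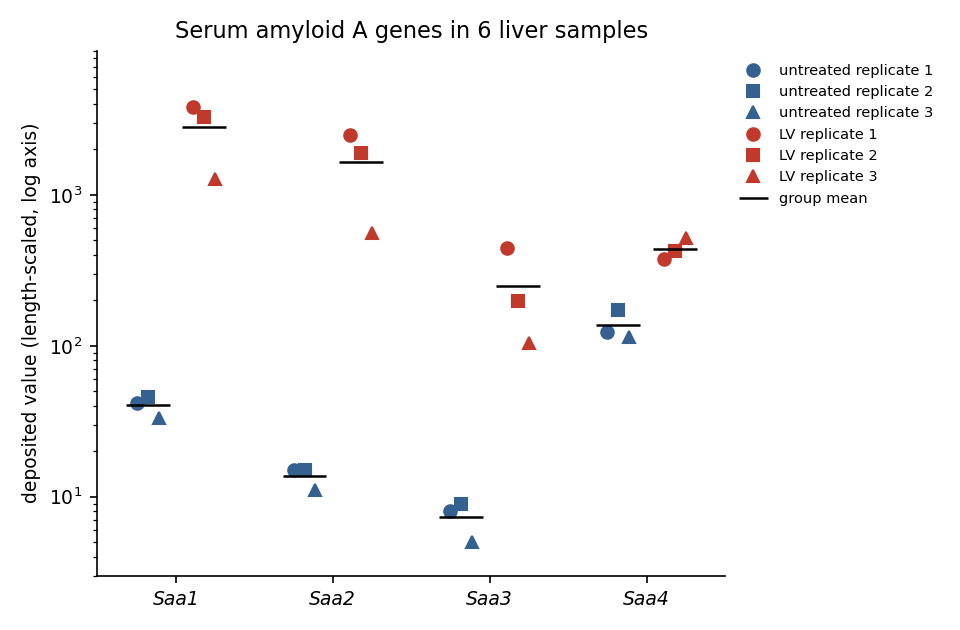
Deposited values of Saa1 to Saa4 in each of 6 liver samples, on a log axis; colours give the group, marker shapes the replicate, and black lines the group mean (n = 3). No LV value of a gene overlaps its untreated values, and LV replicate 3 is the lowest LV library for Saa1, Saa2 and Saa3 and the highest for Saa4.

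Saa1, a main plasma form, had values of 3839, 3274 and 1264 in LV replicates 1, 2 and 3 and of 42, 46 and 33 in untreated replicates 1, 2 and 3. The untreated samples were alike, whereas the LV samples differed among themselves by 3.04-fold from highest to lowest. Even the lowest LV value was 27.5-fold above the highest untreated value. The group means were 2792 ± 1353 and 40.3 ± 6.66 (SD, n = 3), and the log2 fold change was 5.94 ± 0.45 (95% interval 4.82 to 7.06; limma adjusted p = 0.00248). Saa1 thereby moved from rank 1475 to rank 19 of 8386 genes by group mean.

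Saa2, the other main plasma form, had 2475, 1888 and 559 in LV replicates 1, 2 and 3 and 15, 15 and 11 in untreated replicates 1, 2 and 3. LV replicate 3 was again low, 4.43-fold under replicate 1 but 37.3-fold above the highest untreated library. The means were 1641 ± 982 and 13.7 ± 2.31 (SD, n = 3). Its log2 fold change of 6.57 ± 0.58 (95% interval 5.12 to 8.02; limma adjusted p = 0.00412) ranked 5 among all genes and that of Saa1 ranked 9. Without LV replicate 3 the Saa2 value was 7.22, and without LV replicate 3 and untreated replicate 2 together Saa2 was at 7.29 and Saa1 at 6.54. The sum of the 2 rows does not depend on how reads were split between them. It was 6314, 5162 and 1823 in LV replicates 1, 2 and 3 and 57, 61 and 44 in untreated replicates 1, 2 and 3, which is 6.16 ± 0.49 as a log2 fold change (adjusted p in limma 0.00311).

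Saa3, the member also made by macrophages and fat cells, was the least abundant in untreated samples. It had 447, 198 and 105 in LV replicates 1, 2 and 3 and 8, 9 and 5 in untreated replicates 1, 2 and 3. The LV libraries spread over 4.26-fold and the lowest lay 11.7-fold above the highest untreated value. The log2 fold change was 4.70 ± 0.55 (95% interval 3.31 to 6.08; limma adjusted p = 0.0109). The call was lost without LV replicate 2 (adjusted p = 0.0729), untreated replicate 1 (0.0704), untreated replicate 2 (0.0533) or untreated replicate 3 (0.0693), while the fold change stayed between 4.16 and 5.20 with any 1 library left out. It was also lost without LV replicate 3 and untreated replicate 2 together (limma adjusted p = 0.0598, log2 fold change 5.34).

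Saa3 was set beside markers of the cells that can make it. Of 12 Kupffer cell or macrophage markers 11 were in the table and 0 were called in limma, with 1 (Lyz2) higher and 1 (Vsig4) lower at an unadjusted p under 0.05. In all, 3 had a positive and 8 a negative fold change. Their summed value was 221, 416 and 269 in LV replicates 1, 2 and 3 and 432, 298 and 395 in untreated replicates 1, 2 and 3. It was lowest in LV replicate 1, where Saa3 was highest. The LV sample with the lowest Saa3, replicate 3, did not have the highest sum, so the LV orders were neither alike nor opposite. Vsig4 had 5, 10 and 7 in LV replicates 1, 2 and 3 and 17, 15 and 18 in the untreated ones (limma adjusted p = 0.0693). Clec4f, a Kupffer cell lectin, had 19, 49 and 35 in LV replicates 1, 2 and 3 and 77, 53 and 53 in untreated replicates 1, 2 and 3 (limma adjusted p = 0.267). Lyz2, lysozyme of myeloid cells, had 86, 101 and 66 against 64, 50 and 51 (limma adjusted p = 0.174). Of 7 adipocyte markers only Fabp4, a fatty acid binding protein, was listed, with 48, 18 and 17 in LV replicates 1, 2 and 3 and 20, 12 and 20 in the untreated ones (limma adjusted p = 0.578). None of the 12 neutrophil markers was in the table, and of 7 monocyte markers 1 was. In whole liver, fewer cells of a type and less RNA per cell cannot be told apart, and which cells the Saa3 transcripts came from was not tested.

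Saa4, the member known as constitutive, was the most abundant Saa gene in untreated samples and rose least. Its values were 376, 425 and 516 in LV replicates 1, 2 and 3 and 124, 172 and 114 in untreated replicates 1, 2 and 3. The groups did not overlap, and the lowest LV value was 2.19-fold above the highest untreated value. The means were 439 ± 71.0 and 137 ± 31.0 (SD, n = 3), with a log2 fold change of 1.69 ± 0.20 (95% interval 1.18 to 2.19; limma adjusted p = 0.0116), rank 157 among all genes. The call was lost without LV replicate 1 (adjusted p = 0.0507), LV replicate 2 (0.0748), untreated replicate 1 (0.0756) or untreated replicate 3 (0.0610), with fold changes of 1.56 to 1.86 over the 6 libraries left out in turn.

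**Figure D3:**
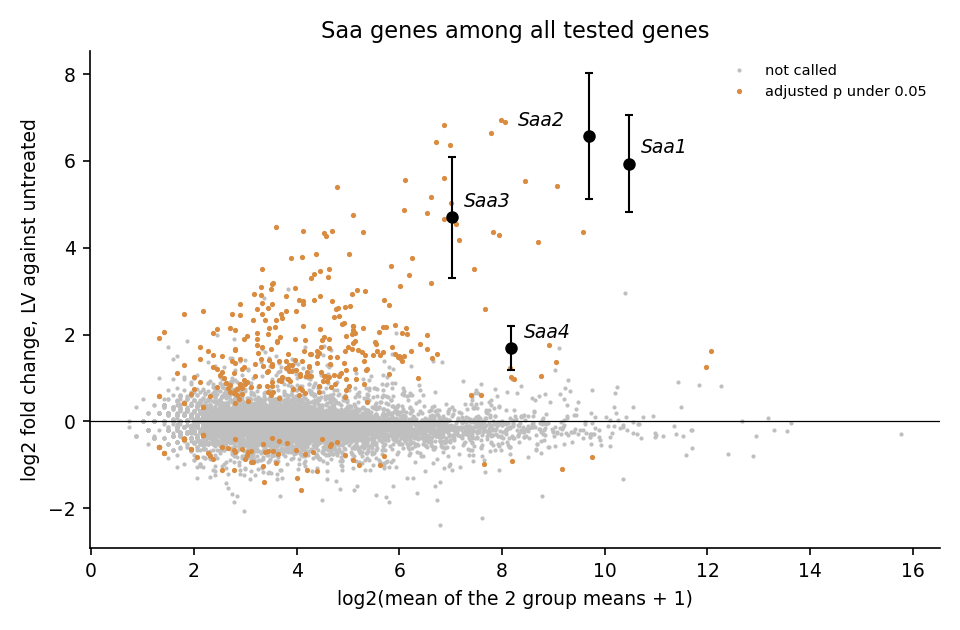
Log2 fold change of each of 8386 tested genes against log2 of its mean level plus 1; orange points have an adjusted p under 0.05, and the black points with 95% intervals are the Saa genes. Saa1 and Saa2 combine a large fold change with a high level, and Saa4 lies at 1.69.

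The LV libraries followed opposite orders in the inducible members and in Saa4. Saa1, Saa2 and Saa3 were highest in LV replicate 1 and lowest in LV replicate 3, and Saa4 was highest in LV replicate 3. Being lowest in LV replicate 3 was common among genes called higher, at 229 of 315 (72.7%) against 28.7% of all tested genes. It also held for 24 of 28 other acute-phase protein genes, called or not, and for all 10 of those called higher. In both groups the library with high Elovl3 had the highest Saa4 value, 516 in LV replicate 3 and 172 in untreated replicate 2. Between those 2 libraries the ratio of LV to untreated values was 27.5 for Saa1, 37.3 for Saa2, 11.7 for Saa3 and 3.00 for Saa4. Between the means of the other 4 libraries it was 94.8, 168, 49.6 and 3.37. These ratios rest on 1 library against 1 and on 2 against 2, and were not tested.

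The relation between members was compared within each library, which removes what a library's scaling shares between genes. Across the 5 ratios tested, the exact two-sided permutation p was 0.1, the smallest that 3 libraries against 3 allow, and also 0.1 adjusted over the 5. No ratio can therefore pass a threshold of 0.05, although none of them overlapped between the groups. The log2 ratio of Saa1 to Saa4 was 3.35, 2.94 and 1.29 in LV replicates 1, 2 and 3 and -1.54, -1.88 and -1.76 in untreated replicates 1, 2 and 3. All LV samples thus held more Saa1 than Saa4 and all untreated samples less, with a difference of 4.25 between group means. The corresponding difference was 4.88 for Saa2 to Saa4 and 3.01 for Saa3 to Saa4. Among the inducible members, the linear ratio of Saa2 to Saa1 was 0.645, 0.577 and 0.442 in LV replicates 1, 2 and 3 and 0.357, 0.326 and 0.333 in untreated replicates 1, 2 and 3. Saa3 fell behind Saa1, with a linear ratio of 0.116, 0.0605 and 0.0831 in LV replicates 1, 2 and 3 and of 0.190, 0.196 and 0.152 in untreated replicates 1, 2 and 3.

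On the length-scaled values the order of the members was Saa4, Saa1, Saa2 and Saa3 in every untreated sample, and no neighbours in that order overlapped. In every LV sample Saa1 was highest and Saa2 next, though the ranges of the 2 overlapped between samples. Saa3 exceeded Saa4 in LV replicate 1 only, and their LV ranges overlapped. Saa4 made up 65.6%, 71.1% and 69.9% of the summed Saa value in untreated replicates 1, 2 and 3, and 5.27%, 7.35% and 21.1% in LV replicates 1, 2 and 3. The share of Saa1 and Saa2 grew accordingly, to 53.8% and 34.7% in LV replicate 1. The 4 genes together held 0.0378%, 0.0487% and 0.0310% of all listed value in untreated replicates 1, 2 and 3 and 1.42%, 1.16% and 0.485% in LV replicates 1, 2 and 3. The GENCODE transcript of Saa4 is 2094 bases long and that of Saa1 609, and no source used here gives the transcript models behind the deposited values, so levels compare less safely between genes than between samples.

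**Figure D4:**
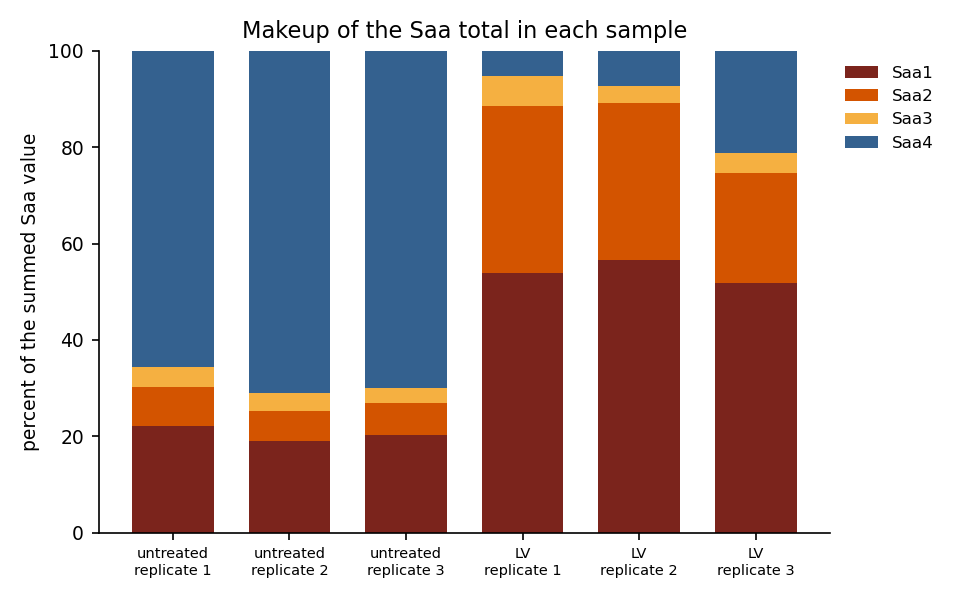
Stacked bars give the percent of the summed value of the 4 Saa genes held by each gene, per sample. Saa4 holds 65.6% to 71.1% in untreated samples and 5.27% to 21.1% in LV samples.

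Profiles were also matched over the 6 libraries by the root-mean-square distance between them, each as log2(value + 1) less the untreated mean. Such a distance depends largely on the size of the LV response, so near genes need not share the order of the LV libraries. Shared regulation was not tested. Saa1 and Saa2 lay 0.47 apart, Saa1 and Saa3 0.92, and Saa4 at least 2.26 from each of the other members. Genes outside the family were compared if their mean over the 6 libraries was at least 5. Nearest to Saa1 were Tgtp, a GTPase (distance 0.43), Isg15, a ubiquitin-like modifier (0.43), and the gene listed as I830012O16Rik (0.44). The last was also nearest to Saa2 (0.42), followed by Ifit3 (0.47) and the chemokine gene Cxcl10 (0.53). Saa3 had Ifit2 (0.34), Fam26f (0.40) and Ifi47 (0.41) as its nearest genes. Some of these genes reached a mean of 5 only through the LV samples. Untreated replicates 1, 2 and 3 had 1, 2 and 2 for Tgtp, 1, 2 and 1 for I830012O16Rik and 2, 4 and 3 for Cxcl10. Ifit2 had 2, 1 and 1 there, and Fam26f 1 in each. Rounding and the added 1 therefore weigh on their fold changes and distances. Isg15, Ifit3 and Ifi47 were higher in untreated samples, at 7 to 31. Nearest to Saa4 was the gene listed as EG240327 (0.06), with 76, 80 and 109 in LV and 25, 33 and 21 in untreated replicates 1, 2 and 3. Irf9, a subunit of an interferon-activated transcription factor (0.13), and Shisa5 (0.20) followed.

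Signals known to induce Saa genes were represented mainly by their receptors. Of 10 acute-phase cytokines searched, only Il18 was in the table, at 16, 13 and 13 in LV and 13, 14 and 7 in untreated replicates 1, 2 and 3 (limma adjusted p = 0.548). A gene absent from the table may be low or left out. All 18 receptor and adaptor genes were measured, and 4 were called higher, 0 lower and 14 not, with a median log2 fold change of 0.36 against -0.07 for all genes. The share of all tested genes called higher was 3.76%. Myd88, the adaptor of interleukin-1 and Toll-like receptors, rose by 1.88 ± 0.25 (limma adjusted p = 0.0159). Osmr, the oncostatin M receptor, had 5, 4 and 3 against 1 in each untreated library (1.30 ± 0.15), and Il22ra1, which senses interleukin-22, had 8, 9 and 8 against 4, 3 and 3 (1.11 ± 0.12). Jak2, a kinase bound to cytokine receptors, rose by 0.70 ± 0.11. The interleukin-6 receptor chain Il6ra had a log2 fold change of -0.30 and its signalling partner Il6st of 0.75 (adjusted p = 0.560 and 0.196). The 4 calls fell to 0 without LV replicate 2, to 1 without untreated replicate 1, to 1 without untreated replicate 3 and to 2 without LV replicate 3 and untreated replicate 2 together.

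Of 22 transcription factors of Saa promoters and regulators of their signalling 19 were measured. In limma 5 were called higher, 0 lower and 14 not (median log2 fold change 0.13). Among all tested genes 3.76% were called higher. The 5 belong to the NF-kB and STAT3 arms, but not every measured gene of these arms was called. Rela, Socs3 and Nfkbia, all not called, had log2 fold changes of 0.50, 1.47 and -0.13 (limma adjusted p = 0.0773, 0.0965 and 0.638). Nfkb2, an NF-kB precursor subunit, had 21, 16 and 12 in LV replicates 1, 2 and 3 and 4, 4 and 2 in the untreated ones (log2 fold change 2.01 ± 0.29). Bcl3, an atypical inhibitor of NF-kB, rose by 1.82 ± 0.28, and Nfkbiz, a related nuclear cofactor, by 1.35 ± 0.21. Stat3, which carries interleukin-6 signals, had 110, 87 and 70 against 33, 30 and 25 (1.55 ± 0.20, limma adjusted p = 0.0142). Nfkb1, another NF-kB subunit, rose by 1.04 ± 0.12. The C/EBP genes were not called: Cebpb had 67, 110 and 61 in LV replicates 1, 2 and 3 and 55, 67 and 132 in the untreated ones, and Cebpa had 135, 130 and 162 against 190, 200 and 206 (limma adjusted p = 0.0796). Leaving out LV replicate 1 gave 1 higher factor, LV replicate 2 gave 0, untreated replicates 1, 2 and 3 gave 2, 3 and 1, and dropping both libraries with high Elovl3 gave 2. Without LV replicate 3 a factor was called lower as well.

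Partners of the SAA proteins were also counted, against the 4.63% of all tested genes called. Of 10 receptors reported for SAA 4 were measured, and Tlr2, a Toll-like receptor, was called higher, with 64, 44 and 36 in LV and 1, 2 and 1 in untreated replicates 1, 2 and 3 (log2 fold change 4.38 ± 0.27, limma adjusted p = 0.00169). Scarb1, the receptor for high-density lipoprotein, had 105, 105 and 118 against 132, 98 and 112. Of 19 genes of high-density lipoprotein, all measured, 0 were called in limma, with 1 higher and 2 lower at an unadjusted p under 0.05 and a median log2 fold change of -0.20. Without untreated replicate 1, 1 of them was called higher. Apoa1, the main apolipoprotein of that particle, had 7592, 8826 and 11596 in LV replicates 1, 2 and 3 and 8777, 9825 and 13630 in the untreated ones (limma adjusted p = 0.702).

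Among 28 tested genes of other acute-phase proteins (A2m was listed but too low to test), 10 were called higher, 0 lower and 18 not, and 25 had a positive fold change (median 0.97). Of all tested genes, 3.76% were called higher, 0.87% were called lower and 41.9% had a positive fold change. Lcn2, a lipocalin that binds bacterial iron carriers, had the largest log2 fold change among the called ones, 5.55 ± 0.99. Mt2, a metallothionein, rose by 4.36 ± 0.72, Orm2, an orosomucoid, by 4.35 ± 0.78, and Steap4, a metalloreductase, by 4.14 ± 0.47. Lcn2 and Orm2 moved most with single samples left out. Lcn2 was 4.87 without LV replicate 1, 6.43 without LV replicate 3 and 4.85 without untreated replicate 2, and Orm2 was 3.75 without LV replicate 1 and 5.15 without LV replicate 3. Lcn2, Mt2 and Orm2 each lost the call with any 1 sample left out except LV replicate 3 (highest limma adjusted p = 0.178). Steap4 lost it without LV replicate 2, untreated replicate 1 or untreated replicate 3, and was 4.74 without LV replicate 3 and untreated replicate 2 together. The median over this list relative to the untreated mean was 1.52, 0.96 and 0.80 in LV replicates 1, 2 and 3. The 10 calls became 4 without LV replicate 1, 2 without LV replicate 2, 15 without LV replicate 3, 2, 4 and 3 without untreated replicates 1, 2 and 3, and 5 without LV replicate 3 and untreated replicate 2 together. Of 11 plasma protein genes known to fall in the acute phase 0 were called in limma, nor did any have an unadjusted p under 0.05 (median -0.20).

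Genes next to the Saa cluster were measured where the table held them. Of the 10 RefSeq genes on either side, and 2 further genes between the members, 4 were in the table, all on the side of Saa2, and 0 were called in limma, with 1 higher at an unadjusted p under 0.05. Hps5, the nearest gene beyond Saa2 and a part of a lysosome biogenesis complex, had 6, 5 and 4 in both groups. Gtf2h1, a subunit of a general transcription factor, had 14, 12 and 13 against 12, 17 and 14, and Tsg101, an endosomal sorting gene, 9, 9 and 11 against 10, 10 and 8. Ldha, lactate dehydrogenase A, had 511, 507 and 381 in LV replicates 1, 2 and 3 and 381, 274 and 330 in the untreated ones (log2 fold change 0.50 ± 0.18, limma adjusted p = 0.212).

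**Figure D5:**
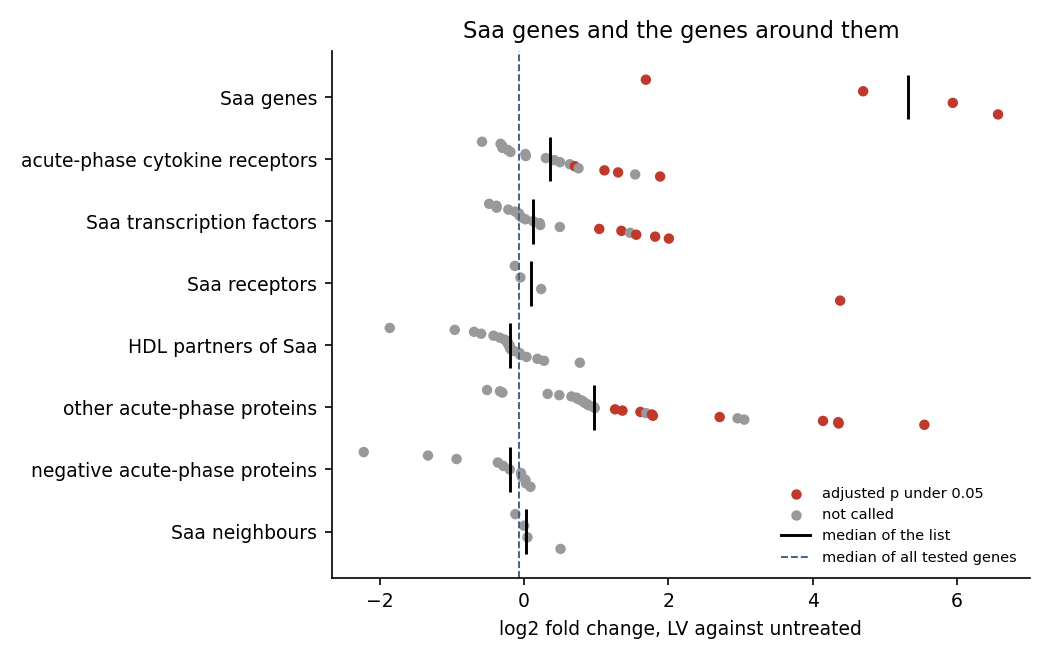
Log2 fold change of the Saa genes and of the genes of 7 lists, each point a gene; red points have an adjusted p under 0.05, black bars are list medians and the dashed line is the median of all tested genes (-0.07). Saa1 and Saa2 lie beyond every gene of the other lists, and no neighbour of the cluster is called.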

How the data were processed

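RNA of 6 mouse liver samples (3 LV, 3 untreated) was sequenced from libraries made with an Illumina TruSeq kit, per the labels' protocols. The authors deposited whole numbers whose unit no label or header names, handled here as a score that was rounded after scaling. Their low end followed transcript length: the 1st percentile was 6.17 among genes in the shortest decile of transcript length and 1 among those in the longest. Of builds, the submitters' processing notes list mm9; aligner and annotation were not given in the sources used here. Read depth is unknown, so no counting interval is given.

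Of 8390 genes, the 8386 that reached 1 in 3 or more samples were fitted as log2(value + 1) by group in limma 3.58.1 (R 4.3.3) with an intensity trend, two-sided, with adjustment over all tested genes and no covariate. Ratios between members were tested by exact permutation over libraries (scipy 1.17.1). The fit was tested on simulated data. The members, lists and tests were chosen with earlier results of these data known. Of 120 entries in 7 gene lists, 101 were in the table; of 84 marker entries, 37. Named genes were the members, the neighbours of the cluster, up to 4 called genes per list by size of change, a few fixed genes, and the 3 nearest profiles per member. Cebpa, Rela, Nfkbia, Socs3, Alb, Hnf4a, Tat, Clec4f, Vsig4, Clec4g, Lyve1, Lyz2, Fabp4, Il18, Elovl3 and Cyp2b9 were named after their values were seen. Promoters come from RefSeq (GRCm38.p6) and transcripts from GENCODE M21, and no coordinates were carried between builds. Alternatives left out each library, left out 2 together, added a replicate block, and changed pseudocount, filter, scaling and trend.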

Additional observations from a re-analysis of the deposited data

How the results depend on the processing

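Saa1, Saa2 and their sum kept direction and call under all 15 alternatives, with log2 fold changes of 5.63 to 6.54, 6.14 to 7.29 and 5.82 to 6.80 and limma adjusted p values of up to 0.0276, 0.0401 and 0.0310. Saa3 and Saa4 kept their direction but not always their call. With single libraries left out they ranged from 4.16 to 5.20 and from 1.56 to 1.86, and Saa3 was 5.34 (adjusted p = 0.0598) without LV replicate 3 and untreated replicate 2. Single libraries left out gave 119 to 313 genes called higher, against 315, and 10 to 116 called lower, against 73, and 136 were lower without those 2 libraries together. The replicate numbers were not used as pairs in the main fit. Deviations from the group means correlated at 0.30, -0.48 and -0.35 for numbers 1, 2 and 3. The highest correlation, 0.63, was between LV replicate 3 and untreated replicate 2, both high in Elovl3. With 1 library per group set apart, these values cannot decide whether same-numbered samples were handled together. With a replicate block Saa4 stayed at 1.69 but missed the threshold (adjusted p = 0.0883), 145 genes were higher and 11 lower, and the receptor, transcription factor and other acute-phase lists had 0, 4 and 1 higher. The 5 ratios kept their direction under all 8 alternatives. Genes near 0 changed sign: Cebpb ranged from -0.30 to 0.33, Tsg101 from -0.0498 to 0.0949, Scarb1 from -0.21 to 0.0588 and Gtf2h1 from -0.23 to 0.00123 with 1 library, or those 2, left out. Scaling by the median of ratios gave 0.0142 for Cebpb and 0.0012 for Scarb1, and Cebpb was 0.0096 without the 2 libraries. The cause of these shifts was not tested. The median of all genes was -0.07, -0.04 and -0.02 under quantile, equal-total and median-of-ratios scaling. Depth is unknown, and rounding limits genes with low values such as Osmr.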
